A study of Mus musculus with 12 samples.

Results

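The WNT ligands described here are 10 secreted signalling proteins of mouse skin, encoded by Wnt3, Wnt3a, Wnt4, Wnt5a, Wnt6, Wnt7a, Wnt7b, Wnt9b, Wnt10a and Wnt10b. They were chosen by gene name, with earlier results of these data known. All 10 were listed in each of the 12 deposited tables, among 19 WNT ligand genes and 25965 genes in all. The series compares skin cells with and without the epidermal growth factor receptor gene Egfr, by RNA sequencing of sorted cells from 3 compartments named IFE, ORS (outer root sheath) and HFSC (hair follicle stem cells). Each compartment holds 2 control and 2 knockout libraries. Controls carry the genotype EGFR_fl_fl, in which Egfr is floxed. Knockouts of IFE and ORS carry EGFR_delta_ep, and knockouts of HFSC carry EGFR_delta_LGR5. The promoters that drive the deletions and the ages of the mice are given in none of the labels. Each library is called by its title's letter and number: E341 and E360 for IFE control, E341 and E344 for ORS control, E358 and E359 for the knockouts of both, L136 and L94 for HFSC control, and L95 and L97 for HFSC knockout. No label says that the libraries of a group came from separate animals, so every p-value reflects the spread among the samples at hand, and that spread may be technical. Sex-linked reads set only the 2 ORS controls apart as different animals, E341 as male and E344 as female.

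WNT proteins are lipid-modified ligands that act over short distances. In the canonical branch they bind Frizzled receptors with LRP co-receptors, which stabilises β-catenin and lets it switch on target genes with TCF and LEF factors. In skin this signal is known for specifying hair follicles and driving their growth phase, and epidermal basal cells make WNT ligands of their own. Wnt3, Wnt3a, Wnt10a and Wnt10b are best known as canonical ligands, and Wnt5a for signalling without β-catenin, while Wnt4, Wnt6, Wnt7a, Wnt7b and Wnt9b have been tied to more than 1 branch depending on the tissue.

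The upstream sequences of Wnt3, Wnt9b and Wnt4 are shown because the knockout comparisons turn on these 3 genes. Promoter windows of 300 bases were found in RefSeq (GRCm38.p6) for 7 of the 10 genes. The stretch of each window that lies before the gene is printed 5′ to 3′ on the gene's strand, at chr11:103773925-103774149 (+) for Wnt3, chr11:103749822-103750071 (-) for Wnt9b and chr4:137277385-137277488 (+) for Wnt4. Capitals mark the GC box letters GGGCGG or their reverse complement, where matches that overlap run together.
Wnt3: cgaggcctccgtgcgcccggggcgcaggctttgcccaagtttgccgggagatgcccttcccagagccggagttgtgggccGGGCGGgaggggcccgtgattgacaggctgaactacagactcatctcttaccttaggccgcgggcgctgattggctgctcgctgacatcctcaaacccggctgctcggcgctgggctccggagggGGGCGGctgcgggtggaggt
Wnt9b: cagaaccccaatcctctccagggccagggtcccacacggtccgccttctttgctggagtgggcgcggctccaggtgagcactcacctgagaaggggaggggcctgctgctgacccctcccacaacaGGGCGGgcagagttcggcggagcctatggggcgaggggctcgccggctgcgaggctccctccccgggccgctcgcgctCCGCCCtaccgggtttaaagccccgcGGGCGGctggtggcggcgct
Wnt4: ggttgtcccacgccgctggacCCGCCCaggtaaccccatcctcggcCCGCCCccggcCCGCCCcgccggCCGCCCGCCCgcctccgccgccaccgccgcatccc
The full windows held 2 GC boxes in Wnt3, 3 in Wnt9b and 8 in Wnt4, with 24, 29 and 51 CpG dinucleotides against a median of 7 over all windows. A GC box on either strand was present in 35.7% of 32851 promoter windows of this length. The TATA box letters TATAAA (13.6% of windows), the TCF/LEF core CTTTGAT (3.7%) and the AP-1 letters TGANTCA (7.8%), searched on both strands, were in none of the 7 windows. A match is only a description of these letters.

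Between 11.4 and 27.7 M reads per library fell in genes. They were 50.6% to 54.6% of the library total in ORS and 26.9% to 29.6% in IFE and HFSC. Egfr was at 115.5 to 155.5 CPM (reads per 1e6 gene reads, TMM-scaled) in IFE controls and at most 0.319 CPM in IFE knockouts. It was at 247 to 277 CPM in ORS controls and 3.72 and 55.2 CPM in ORS knockouts. In HFSC it was at 389 to 431 CPM in controls and 330.1 to 335 CPM in the libraries labelled knockout, so directions drawn for HFSC refer to the label. The labels call IFE cells inner root sheath. Of the 7 markers of that layer in the tables, Krt25 and Krt28 had 0 reads in all 4 IFE libraries and Krt27, Krt71, Krt73 and Tchh were at most 23.3 CPM, while Gata3, a transcription factor also made in epidermis, was at 857 to 1010 CPM. Gata3 held most of the list's sum, which was highest in IFE (875 to 1049 CPM, against 301 to 383 in ORS and 437 to 607 in HFSC). Krt1 and Krt10, keratins of the upper epidermis, were at 699 to 1697 and 649 to 1404 CPM there. The stem cell marker Cd34 was at 1330 to 2150 CPM in HFSC, at most 5.88 CPM in ORS and 0 in IFE. Krt15 and Lhx2 of the same bulge list also averaged more in HFSC than in ORS (28001 against 4646.5 and 306 against 266 CPM). Lgr5 (277 against 398 CPM), Sox9 (1806 against 2150), Nfatc1 (214 against 477) and Tcf3 (36.0 against 69.2) averaged less in HFSC. Reads of sex-linked genes marked the IFE controls as male and the IFE knockouts as female, the HFSC controls as female and the HFSC knockouts as male, and only E341 among ORS libraries as male. Genotype and sex therefore cannot be told apart in IFE or HFSC.

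WNT ligand transcript was most abundant in IFE cells and its makeup differed between the compartments. Summed over all 19 ligand genes, the level was 1034 ± 69.9 CPM in IFE, 173 ± 35.2 in ORS and 83.4 ± 17.9 in HFSC (SD, n = 4 each, both genotypes). The ranges of the 3 compartments, 990.1 to 1137, 145 to 224 and 57.7 to 98.9 CPM, did not overlap. The 10 ligands held 85.6% to 98.6% of all ligand reads in a library. In bulk RNA, fewer cells that express a gene and less transcript per cell cannot be told apart.

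Levels were compared between genes as CPM per kilobase of exon. In IFE, Wnt4 made up 37.7% ± 4.81 and Wnt3 32.2% ± 3.14 of the summed ligand level on this scale, followed by Wnt7b at 7.39% ± 0.488 (SD, n = 4). In ORS no single ligand led in every library: Wnt6 held 21.4% ± 1.72, Wnt4 20.4% ± 4.32, Wnt5a 19.3% ± 4.12 and Wnt7b 13.5% ± 4.87. Wnt5a ranked first in both ORS controls and Wnt4 in both ORS knockouts. In HFSC, Wnt4 held 44.1% ± 6.04 and Wnt10a 25.5% ± 14.4. Wnt4 led there except in knockout L95, where Wnt10a held 42.4%. Wnt3 held 3.97% ± 3.25 in HFSC and 3.35% ± 2.62 in ORS.

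**Figure D1:**
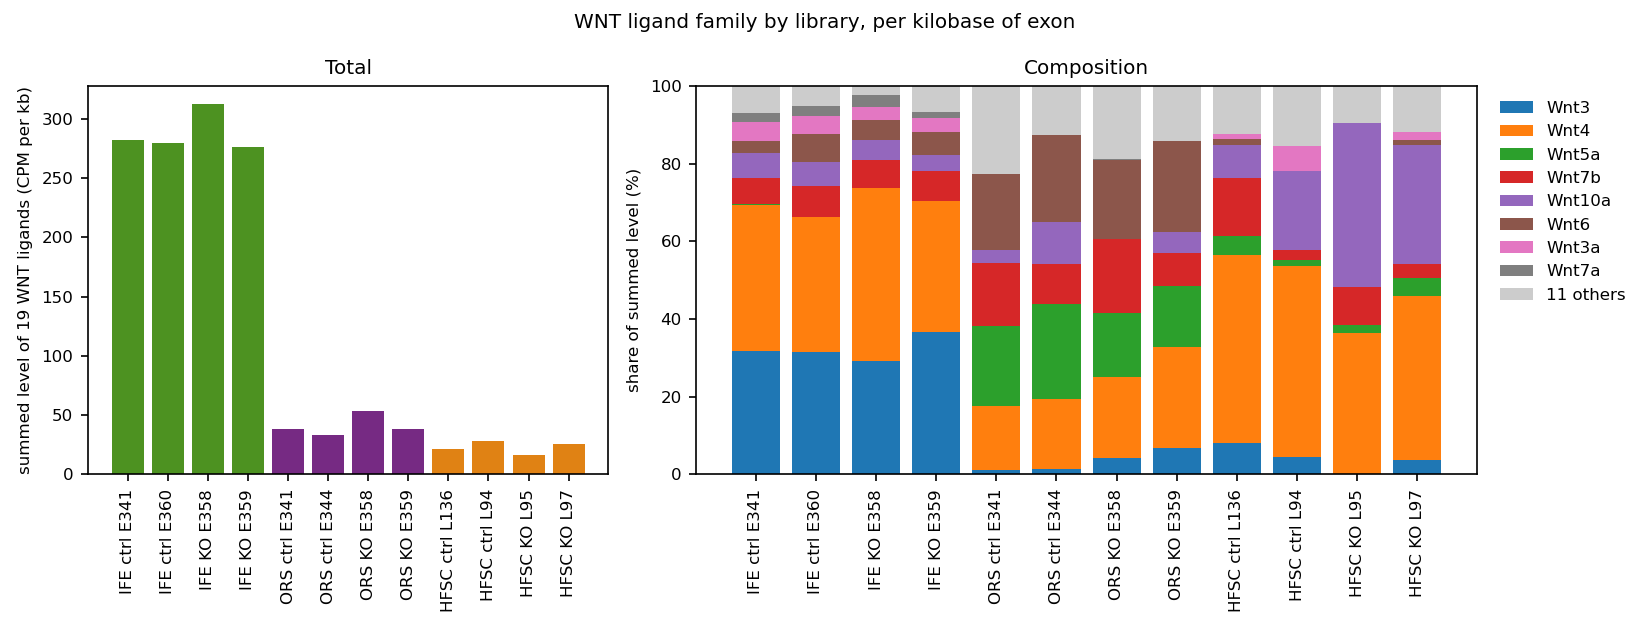
Left, summed level of all 19 WNT ligand genes (CPM per kilobase of exon) in each of the 12 libraries, with bars coloured by compartment (green IFE, purple ORS, orange HFSC). Right, share of that sum (%) held by 8 named ligands and by the 11 others together; the IFE bars are mostly Wnt3 and Wnt4, and the Wnt3 share is at most 7.92% elsewhere.

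To compare compartments, control and knockout groups were averaged in a limma fit of all 12 libraries on log2(CPM + 0.5), and calls were made where the p adjusted by Benjamini-Hochberg was under 0.05. HFSC libraries carry L numbers and the others E numbers, so compartment and set of libraries cannot be told apart in comparisons with HFSC. ORS libraries also differed from the rest in their share of reads in genes, as given above. Between ORS and IFE, 9 of the 10 ligands were called, with Wnt5a higher in ORS and 8 lower. Over all 15251 genes, 10.6% were called higher and 8.82% lower. Between HFSC and IFE, 9 were again called, Wnt5a higher and 8 lower in HFSC, where 19.9% of genes were called higher and 16.1% lower. Both counts of lower ligands include Wnt7a and Wnt9b, which passed the filter on low reads only through IFE libraries. Their direction was fixed by that filter, so these 2 calls lend the counts and medians no support. The median log2 difference of the ligands was -3.09 in ORS and -3.66 in HFSC, against 0.12 and 0.18 over all genes. With the 2 ligands that were at 0 throughout a compartment placed at their bound of 3 reads per library, the medians were -3.68 and -4.15. With control groups alone, 5 ligands were called between ORS and IFE. With library number as a term in that comparison, Wnt3 and Wnt4 alone stayed called, though no label states such a pairing. Of the 9 other WNT ligand genes 5 were tested, with medians of 0.01 in ORS and -0.18 in HFSC against IFE. In ORS 1 of them was called higher and 2 lower, and in HFSC 0 and 2. The 10 ligands were chosen with earlier results known, so their medians stand for the listed genes alone.

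Sums of epidermal markers were also highest in IFE, but unlike the ligand sums they were higher in HFSC than in ORS. The 6 basal keratinocyte markers summed to 18779 to 24550 CPM in IFE, 6592.5 to 8831 CPM in ORS and 16744 to 18430 CPM in HFSC. The 6 suprabasal epidermis markers summed to 6067 to 8317 CPM in IFE, 178 to 452 CPM in ORS and 1978 to 2453 CPM in HFSC, and all 6 had reads in each compartment. In HFSC most of that sum was Sbsn (1873 to 2289 CPM, against 64.5 to 159 in IFE), while Krt1, Krt10 and Krtdap were at most 17.8, 77.7 and 82.0 CPM there. The 8 fibroblast and dermal papilla markers summed to 177 to 299 CPM in IFE, 76.7 to 122 CPM in ORS and 33.3 to 87.7 CPM in HFSC. Dcn, a matrix proteoglycan, held most of the IFE sum, while Col3a1, a defining fibroblast collagen, was at 0 in all IFE and ORS libraries and Col1a1 at most 0.336 CPM in IFE. Col1a2 was at 12.3 to 42.4 CPM in IFE. Lum and Pdgfra reached 9.82 and 7.32 CPM there, each with 0 reads in 3 of the 4 libraries, and Alx4 and Crabp1 had 0 reads in all 4. The part of such cells in the ligand levels was not tested.

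**Figure D2:**
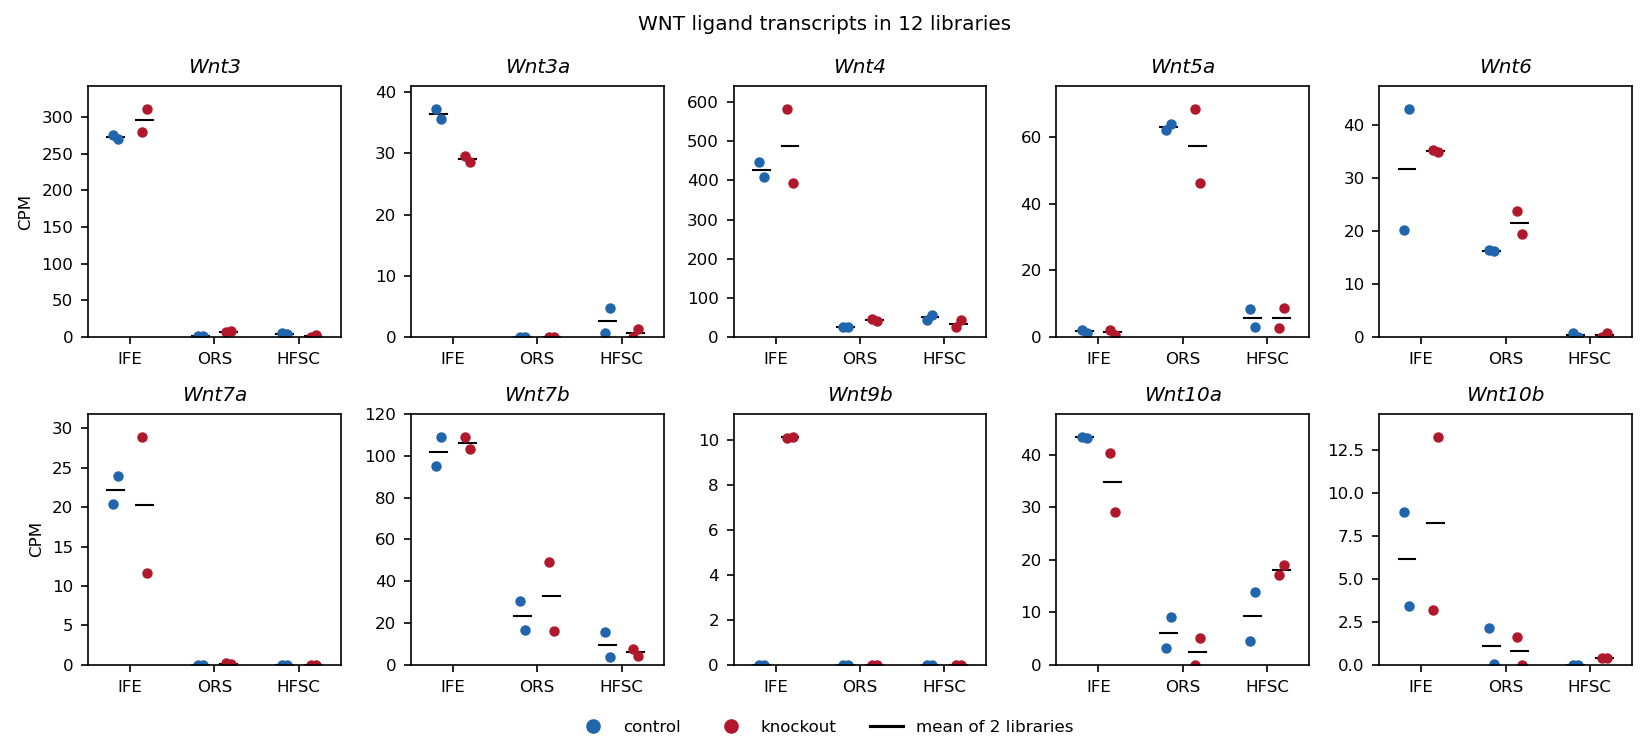
Level of each of the 10 WNT ligands (CPM, linear axis from 0, scaled per gene) in IFE, ORS and HFSC; points are libraries, blue for control and red for knockout, and bars are the mean of 2 libraries. Wnt5a stands highest in ORS at 46.3 to 68.5 CPM, and Wnt9b has reads in the 2 IFE knockout libraries alone.

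Wnt3 (chr11:103774150-103817957, + strand, mm10), a canonical ligand used by hair follicle and epidermal cells, was a transcript of IFE. It was at 275 and 269.9 CPM in IFE controls and 279 and 311 CPM in IFE knockouts. In ORS it was at 1.42 and 1.31 CPM in controls, with 6.99 and 7.77 CPM in knockouts. HFSC controls had 5.22 and 3.75 CPM and the knockouts 0 and 2.75 CPM. All 4 IFE libraries stood far above the other 8, while ORS and HFSC overlapped. The log2 difference was -6.21 (SE 0.522, adjusted p = 7.81e-06, limma) for ORS and -6.82 (SE 0.522, adjusted p = 2.15e-06, limma) for HFSC, each against IFE.

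Wnt4 (chr4:137277489-137299726, + strand), which acts in several branches, was the ligand with the highest read level in every IFE and HFSC library. IFE controls held 447 and 408 CPM and IFE knockouts 583 and 393 CPM. In ORS it was at 26.3 and 25.2 CPM in controls, with 46.3 and 41.8 CPM in knockouts, and in HFSC at 43.6 and 57.3 CPM in controls, with 24.9 and 44.8 CPM in knockouts. The order was thus IFE first, with ORS and HFSC overlapping. ORS differed from IFE by -3.73 (SE 0.224, adjusted p = 6.59e-07, limma), and HFSC by -3.45 (SE 0.224, adjusted p = 6.59e-07, limma).

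Wnt3a (chr11:59248033-59290752, - strand), the ligand often used to activate β-catenin in culture, was at 37.3 and 35.6 CPM in IFE controls and 29.6 and 28.6 CPM in IFE knockouts. It had 0 reads in all 4 ORS libraries, where 3 reads would be 0.107 to 0.115 CPM, so its mean in IFE was at least 294-fold higher. HFSC controls held 0.620 and 4.81 CPM and HFSC knockouts 0 and 1.31 CPM. Both compartments lay below IFE without overlap. The log2 difference from IFE was -4.44 (SE 0.638, adjusted p = 0.000198, limma) in HFSC. In ORS the fitted value was -6.05 (SE 0.638, adjusted p = 4.71e-05, limma), which depends on the pseudocount because ORS was at 0.

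Wnt7a (chr6:91363981-91411363, - strand), known from limb and nervous system patterning, was another transcript of IFE. It was at 20.4 and 23.9 CPM in controls, with 28.9 and 11.7 CPM in knockouts of IFE. ORS controls had 0 reads, the ORS knockouts had 6 and 3 reads, and HFSC had 0 reads in all 4 libraries. Against HFSC its mean in IFE was at least 102-fold higher at 3 reads per library. The fitted log2 differences from IFE were -5.16 (SE 0.499, adjusted p = 2.36e-05, limma) for ORS and -5.37 (SE 0.499, adjusted p = 8.00e-06, limma) for HFSC. Wnt7a passed the filter on low reads only through IFE, so the direction of both was fixed beforehand. The paralog Wnt7b (chr15:85535439-85581821, - strand), tied to hair follicle regeneration, was spread more evenly. It was at 94.9 and 109 CPM in IFE controls and 109 and 103 CPM in IFE knockouts. ORS controls held 30.4 and 16.8 CPM, ORS knockouts 49.3 and 16.1 CPM, HFSC controls 15.6 and 3.55 CPM and HFSC knockouts 7.67 and 4.49 CPM. IFE, ORS and HFSC followed each other without overlap. The difference was -2.02 (SE 0.476, adjusted p = 0.0114, limma) for ORS and -3.86 (SE 0.476, adjusted p = 6.16e-05, limma) for HFSC against IFE. The ORS call was lost without ORS control E344 (-1.81, adjusted p = 0.0556) or ORS knockout E359 (-1.62, adjusted p = 0.0514).

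Wnt10a (chr1:74791516-74804179, + strand), mutated in human ectodermal dysplasias of teeth and hair, was at 43.5 and 43.2 CPM in IFE controls and 40.4 and 29.1 CPM in IFE knockouts. ORS controls held 3.17 and 9.03 CPM and ORS knockouts 0 and 5.05 CPM. HFSC controls held 4.51 and 14.0 CPM and HFSC knockouts 17.1 and 19.03 CPM. IFE stood above the rest, and ORS and HFSC overlapped. ORS differed from IFE by -3.64 (SE 0.693, adjusted p = 0.00321, limma), a call lost with control groups alone (-2.89, adjusted p = 0.0920). HFSC differed by -1.64 (SE 0.693, adjusted p = 0.0860, limma), which was not called. Wnt10b (chr15:98771753-98778150, - strand), known from the growth phase of the hair cycle, was a low transcript. It was at 8.90 and 3.39 CPM in IFE controls and 3.17 and 13.3 CPM in IFE knockouts. ORS controls held 2.17 and 0.0769 CPM and ORS knockouts 1.60 and 0 CPM, and HFSC held 0 in both controls and 0.429 and 0.374 CPM in the knockouts. It differed from IFE by -2.54 (SE 0.716, adjusted p = 0.0276, limma) in ORS and -3.29 (SE 0.716, adjusted p = 0.00360, limma) in HFSC. The adjusted p of the ORS difference was 0.0840 without IFE control E341, 0.0698 without IFE knockout E359, 0.119 without ORS control E344 and 0.106 without ORS knockout E359, so none of these was called.

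Wnt5a (chr14:28504750-28527447, + strand), the main ligand for signalling without β-catenin, ran the other way. ORS held 62.2 and 63.9 CPM in controls, with 68.5 and 46.3 CPM in knockouts. IFE held 2.18 and 1.25 CPM in controls, with 2.06 and 0.799 CPM in knockouts. HFSC lay between, at 8.50 and 3.03 CPM in controls, with 2.88 and 8.80 CPM in knockouts. The 3 ranges did not overlap. ORS stood above IFE by 4.92 on the log2 scale (SE 0.525, adjusted p = 5.13e-05, limma). HFSC stood above IFE by 1.5 (SE 0.525, adjusted p = 0.0425, limma), a call lost in 11 of 21 alternatives, among them the removal of each ORS library, IFE control E360 (adjusted p = 0.0997), IFE knockout E359 (0.0885), HFSC control L136 (0.160) or HFSC knockout L97 (0.166).

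Wnt6 (chr1:74771892-74785319, + strand), an epithelial ligand, was shared by IFE and ORS. It was at 20.3 and 43.1 CPM in IFE controls, 35.3 and 35.0 CPM in IFE knockouts, 16.4 and 16.3 CPM in ORS controls and 23.8 and 19.5 CPM in ORS knockouts. HFSC had 9 reads in control L136, 13 reads in knockout L97 and 0 in the other two. IFE and ORS overlapped and were not called apart, and their order turned on the deposited scale (log2 difference of ORS from IFE 0.19, against -0.77 here). HFSC lay below IFE by -5.34 on the log2 scale (SE 0.522, adjusted p = 1.14e-05, limma). Wnt9b (chr11:103727364-103749821, - strand), best known from kidney and facial development, had reads in the 2 IFE knockout libraries alone, 127 in each. Its compartment difference of -2.20 (SE 0.413) for ORS and for HFSC (adjusted p = 0.00290 and 0.00135, limma) rests on those 2 libraries and was 0.00 with control groups alone.

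**Figure D3:**
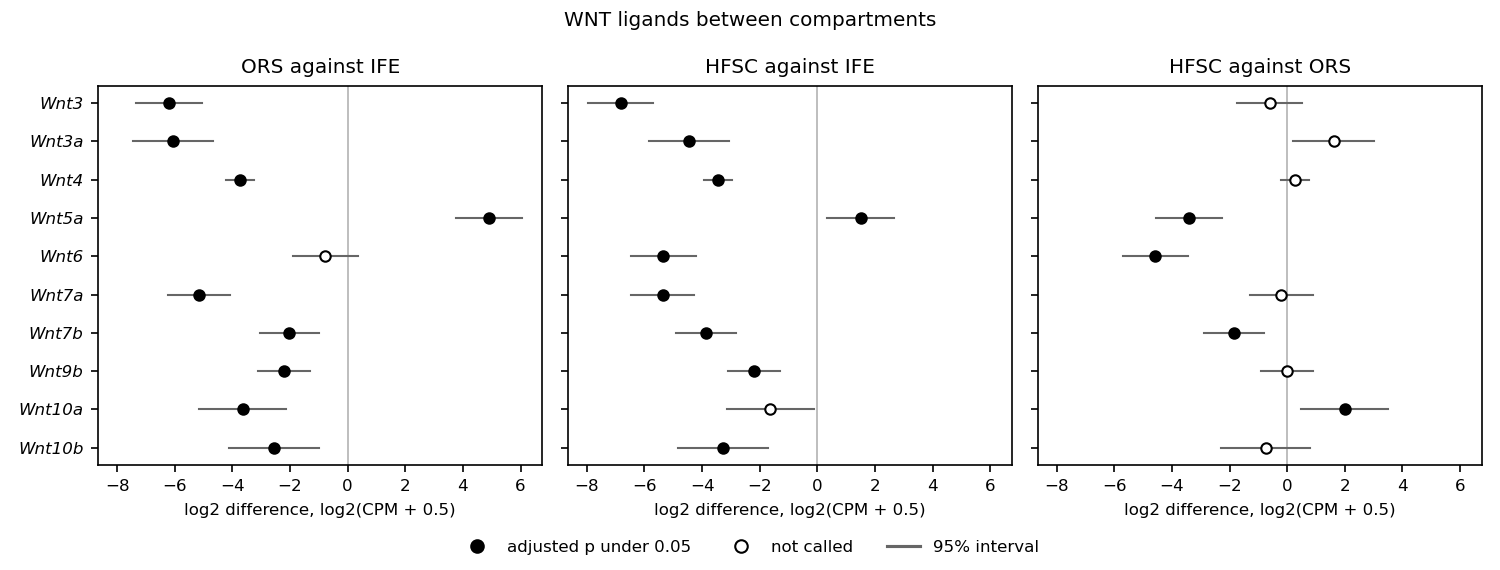
Log2 difference of each WNT ligand between compartments on the log2(CPM + 0.5) scale (points) with 95% intervals (lines), from the fit of all 12 libraries; filled points have an adjusted p under 0.05. In both comparisons with IFE, Wnt5a alone is filled on the right of 0 and 8 ligands are filled on the left.

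HFSC and ORS, both from the hair follicle, differed in fewer ligands. Of 10, Wnt10a was called higher in HFSC and Wnt5a, Wnt6 and Wnt7b lower, where 14.3% of genes were called higher and 14.4% lower. The median log2 difference of the ligands was -0.41, against 0.03 over all genes. The log2 difference was -4.58 for Wnt6 (SE 0.522, adjusted p = 5.26e-05), -3.42 for Wnt5a (SE 0.525, adjusted p = 0.000447) and -1.84 for Wnt7b (SE 0.476, adjusted p = 0.0122), all from limma. Wnt10a differed by 2.0 (SE 0.693, adjusted p = 0.0483) and Wnt3a by 1.61 (SE 0.638, adjusted p = 0.0801). Because Wnt3a was at 0 in ORS its value depends on the pseudocount, and it was called with limma-voom (5.06, adjusted p = 0.0173), on the deposited scale (3.36, 0.0308), with a pseudocount of 0.1 (3.07, 0.0380) and without HFSC control L136 (2.17, 0.0359). The Wnt10a call was lost in 14 of 21 alternatives, and its difference was 1.13 without ORS knockout E358 and 0.53 with control groups alone. The Wnt7b call was lost without ORS control E341 (adjusted p = 0.0568), ORS knockout E358 (0.0613) or HFSC control L94 (0.0514), and 2 ligands were called in each of these and with control groups alone.

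These comparisons use reads within genes as the denominator. On the deposited scale, whose denominator is the library total, the median gene stood 0.95 higher (log2) in ORS against IFE than on the scale used here, and 0.94 lower in HFSC against ORS. The split of calls then moved from 1618 higher and 1345 lower to 7444 and 559 for ORS against IFE, and from 2185 and 2196 to 1046 and 6389 for HFSC against ORS. Of the ligands, 1 was then called higher and 6 lower in ORS against IFE, and Wnt7b (-1.07, adjusted p = 0.0967) and Wnt10b (-3.31, adjusted p = 0.0725) were not called. For HFSC against ORS, 1 was called higher and 4 lower. Wnt4 then differed between HFSC and ORS by -0.71, against 0.28 here.

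In IFE, Wnt9b alone among the ligands had an unadjusted p under 0.05 between knockout and control. limma called 0 of 14449 genes (0%) and 0 of the 10 ligands. At an unadjusted p under 0.05 there were 1088 genes (7.53%) and 1 ligand, and limma-voom called 0 genes. The median log2 fold change of the ligands was 0.09, against -0.03 over all genes. Wnt9b had 0 reads in control E341 and control E360, where 3 reads would be 0.252 and 0.268 CPM. It had 127 reads in each knockout library, or 10.1 CPM in both, which is at least 38.9-fold higher than 3 reads per control library. The fitted log2 fold change was 4.41 (SE 0.791, adjusted p = 0.212, limma), and the adjusted p was 0.0156 with all 12 libraries fitted together. Its adjusted p ranged from 0.0156 to 0.997 over 16 alternatives. The gene passed the filter on low reads only through the knockout group, so no fit without either IFE knockout library was possible. The IFE knockout libraries also differ from their controls in sex.

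Wnt3, whose gene starts 24.3 kb from Wnt9b on the opposite strand with no listed gene between, had a value near 0. Its IFE levels given above correspond to a log2 fold change of 0.11 (SE 0.396, adjusted p = 1, limma), with a 95% interval of -0.76 to 0.99. Wnt4 had a log2 fold change of 0.16 (SE 0.271, adjusted p = 0.955, limma) with an interval of -0.44 to 0.76. Its value was -0.12 without knockout E358, the higher of the knockout libraries. Wnt3a and Wnt10a did not overlap between genotypes and were lower in the knockouts, Wnt3a at 28.6 to 29.6 against 35.6 to 37.3 CPM and Wnt10a at 29.1 to 40.4 against 43.2 to 43.5 CPM. Wnt3 did not overlap either and was higher, and none of these 3 differences passed the test. The share of all genes without overlap between genotypes was not counted. Non-overlap of so few libraries, here and in ORS and HFSC below, is therefore a description only. Wnt5a, Wnt6, Wnt7a, Wnt7b and Wnt10b overlapped between genotypes, with the widest interval for Wnt10b (-2.42 to 2.88).

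In ORS, 2 ligands, Wnt3 and Wnt4, had an unadjusted p under 0.05, both with higher levels in the knockouts. limma called 0 of 14449 genes (0%) and 0 ligands, 491 genes (3.4%) had an unadjusted p under 0.05, and limma-voom called 0 genes. The ligands' median log2 fold change was 0.16, against -0.03 over all genes. Wnt3 had 40 and 34 reads in controls and 188 and 206 reads in knockouts, a log2 fold change of 2.08 (SE 0.396, adjusted p = 1, limma) with an interval of 1.20 to 2.96. It stayed between 1.48 and 2.46 over 18 alternatives and its adjusted p between 0.448 and 1. Wnt4 had 740 and 655 reads in controls and 1247 and 1109 reads in knockouts, a log2 fold change of 0.76 (SE 0.271, adjusted p = 1, limma), and lay between 0.69 and 0.84 over 18 alternatives. Both knockout libraries stood above both controls for either gene. Neither passed the correction over all genes.

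Several marker sums did not overlap between genotypes in ORS, where limma called 0 genes. The suprabasal markers summed to 178 to 296 CPM in ORS knockouts and 341.2 to 452 CPM in controls, where 1 of the 6 genes was at 0. Krt1 was at 1.73 and 4.24 CPM in knockouts and 4.69 and 38.0 CPM in controls. The 7 inner root sheath markers summed to 368 to 383 CPM in knockouts and 301 to 329 CPM in controls, most of it Gata3 (339 to 355 against 282 to 321 CPM), which is also high in IFE. The 7 bulge markers summed to 7913 to 9500 CPM in knockouts and 7257 to 7370 CPM in controls, and the 4 companion layer and infundibulum markers to 3902 to 3920 and 4405 to 4728 CPM. The fibroblast and dermal papilla markers summed to 93.6 to 122 CPM in knockouts and 76.7 to 86.9 CPM in controls, with 2 of 8 at 0 in each. The 6 sebaceous gland markers summed to 135.73 to 151.39 CPM in knockouts and 158.66 to 335.46 CPM in controls. Their median log2 fold change was -1.36, against -0.03 over all genes. At an unadjusted p under 0.05 (limma), 3 of these 6 genes and 3 of the 6 suprabasal genes stood lower in the knockouts. The part of other cells in the Wnt3 and Wnt4 levels was not tested. Among the rest, Wnt6 did not overlap between genotypes (19.5 to 23.8 against 16.3 to 16.4 CPM), while Wnt5a, Wnt7b, Wnt10a and Wnt10b overlapped. Wnt3a and Wnt9b had 0 reads in ORS. Wnt7a had at most 6 reads.

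In HFSC, 7 of the 10 ligands passed the filter on low reads, and Wnt7a, Wnt9b and Wnt10b did not. limma called 5 of 13778 genes (0.0363%) and 0 ligands. They included the sex-linked Ddx3y, Eif2s3y, Uty and Xist, named after their values were seen. Counting an unadjusted p under 0.05, there were 1052 genes (7.64%) and 0 ligands, and limma-voom called 0 genes. Wnt3 had 59 and 57 reads in controls and 0 and 44 reads in knockouts, levels that did not overlap, and its log2 fold change was -1.95 (SE 1.0, adjusted p = 0.692, limma) with an interval of -4.31 to 0.41. It ran from -3.92 to -0.60 over 13 alternatives and was -0.60 without knockout L95, which had 0 reads, and -3.30 without knockout L97. For Wnt4 the value was -0.57 (SE 0.353, adjusted p = 0.734, limma), with an interval of -1.40 to 0.25 and overlapping levels, and was -0.16 without L95 and -0.99 without L97. The levels of Wnt10a, 4.51 and 14.0 CPM in controls, with 17.1 and 19.03 CPM in knockouts, did not overlap. Its interval was -0.24 to 2.48. Wnt3a, Wnt5a, Wnt6 and Wnt7b overlapped between genotypes. The ligands' median was -0.34, against 0.01 over all genes. Bulge marker sums did not overlap, at 22922 to 27740 CPM in HFSC knockouts and 37639 to 40534 CPM in controls. Suprabasal sums were also lower in knockouts without overlap, while hair matrix and shaft sums and companion layer and infundibulum sums were higher. The part of other cells in the HFSC ligand levels was not tested.

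**Figure D4:**
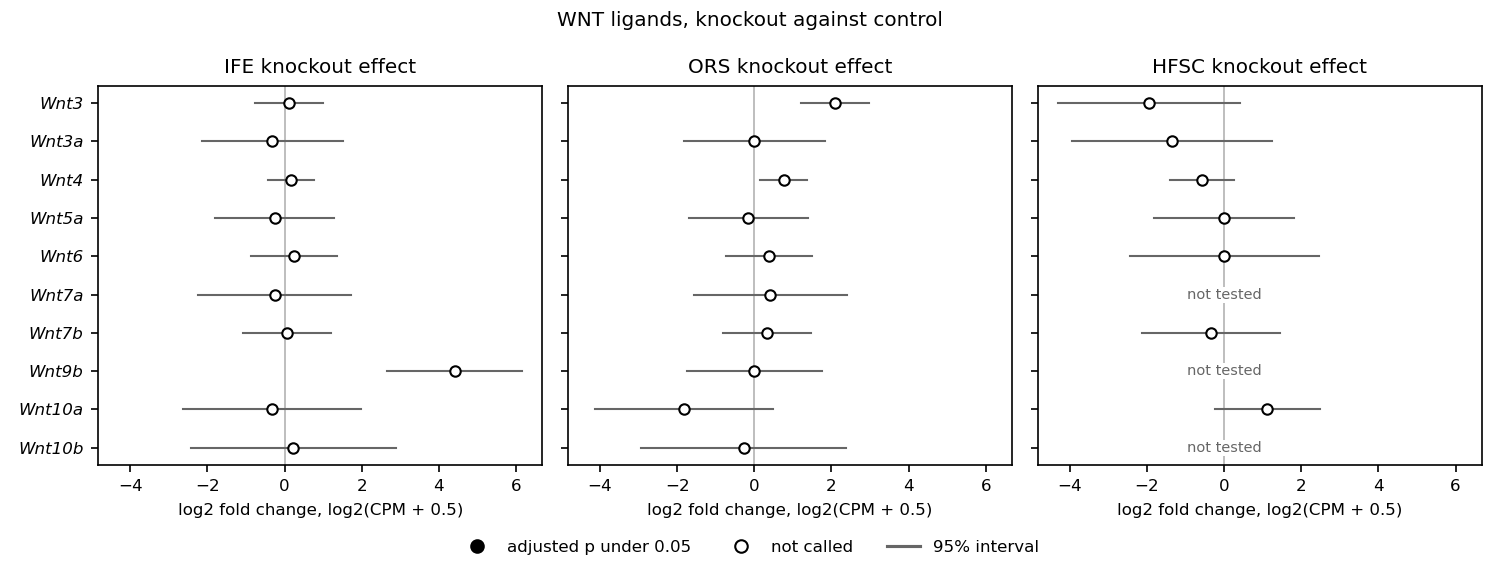
Log2 fold change of each WNT ligand, knockout against control, on the log2(CPM + 0.5) scale in IFE, ORS and HFSC (points) with 95% intervals (lines); open points were not called. Intervals exclude 0 for Wnt9b in IFE and for Wnt3 and Wnt4 in ORS, before correction over all genes.

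Whether the knockout effect differed between compartments was tested as an interaction. For ORS minus IFE, limma called 0 of 14449 genes (0%), with 690 at an unadjusted p under 0.05 and 0 by limma-voom. The difference of effects was 1.96 for Wnt3 (SE 0.560, adjusted p = 0.999) and -4.41 for Wnt9b (SE 1.12, adjusted p = 0.999). For HFSC minus ORS, limma called 0 of 15251 genes (0%), with 682 at an unadjusted p under 0.05 and 1 by limma-voom. Here Wnt3 differed by -4.03 (SE 1.04, adjusted p = 0.684), with -6.34 to -2.54 over 20 alternatives and -2.68 without HFSC knockout L95, and Wnt4 by -1.34 (SE 0.448, adjusted p = 0.936). For HFSC minus IFE, limma called 0 of 15251 genes (0%), with 1110 at an unadjusted p under 0.05 and 0 by limma-voom. Wnt9b differed by -4.41 (SE 0.826, adjusted p = 0.159). No ligand was called in these 3 comparisons by either method.

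Some of the ligand genes lie side by side in the genome. Wnt6 and Wnt10a lie 6.2 kb apart on the same strand, and over the 12 libraries the Pearson correlation of their log2 levels was 0.02. ORS held 16.3 to 23.8 CPM of Wnt6 and 0 to 9.03 CPM of Wnt10a, whereas HFSC held at most 0.811 CPM of Wnt6 and 4.51 to 19.03 CPM of Wnt10a. Wnt3a lies 16.2 kb from Wnt9a, which had at most 0.639 CPM in IFE, and Wnt10b lies 11.7 kb from Wnt1, which had 0 reads in all 12 libraries. No listed gene overlapped any of the 10 ligands, so reads of an overlapping or antisense gene of the tables do not enter these values.

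As a description, the genes most like each ligand were ranked by the Pearson correlation of log2 levels over the 12 libraries among 13523 genes averaging at least 1 CPM. The libraries fall into 3 compartments, so for ligands other than Wnt9b the correlation mainly reflects those. For Wnt9b it reflects the 2 IFE knockout libraries, the only ones with its reads, which also differ in sex from the IFE controls. The gene most like Wnt3 was Wnt4 (r = 0.976), followed by Atp5d and Lrp4. Nearest to Wnt7a was the receptor gene Fzd10 (r = 0.988), which averaged 157 CPM in IFE, 6.48 CPM in ORS and 5.02 CPM in HFSC, and then Trpm2 and Igf2. Wnt5a was nearest to Mtss1 (r = 0.983), Gpr56 and B3galnt1. For Wnt9b the nearest were Prox1 (r = 0.997), P2ry14 and Gnat2, for Wnt4 Cisd3, Fam162a and Oat, and for Wnt10a Ell2 (r = 0.960), Skint1 and Cd55. Wnt3a was nearest to Ms4a10, Plek2 and Mef2a, Wnt6 to 2810025M15Rik, Siva1 and Hmgn1, Wnt7b to Psmb3, Mrp63 and 1810035L17Rik, and Wnt10b to Cript, Fcf1 and 5730469M10Rik. Wnt5a correlated negatively with Wnt3a (r = -0.83), Wnt10a (-0.81) and Wnt4 (-0.73).

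Of the 10 genes for lipidation, secretion and release of WNT proteins, 8 were tested between compartments. In ORS against IFE 1 was called higher and 1 lower, in HFSC against IFE 2 and 2, and in HFSC against ORS 1 and 1. Over all genes the shares called higher and lower were 10.6% and 8.82%, 19.9% and 16.1%, and 14.3% and 14.4%, so these counts of 8 genes lie near the background. Wls, the carrier that brings WNT proteins to the cell surface, was at 562 to 654 CPM in IFE, 264 to 376 CPM in ORS and 232 to 252 CPM in HFSC. It differed by -0.92 in ORS (SE 0.118, adjusted p = 0.000213, limma) and -1.34 in HFSC (SE 0.118, adjusted p = 5.73e-06, limma) against IFE. On the deposited scale the ORS difference was 0.05 and not called. Gpc4, a heparan sulfate carrier at the cell surface, was called higher in both ORS (1.80) and HFSC (1.54). Vps26a of the retromer was called higher in HFSC against IFE (1.25), and Porcn, which attaches the lipid, in HFSC against ORS (2.82, and 2.17 with an adjusted p of 0.168 on the deposited scale).

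Of 25 receptor and co-receptor genes 22 were tested, with 7 called higher and 3 lower in ORS against IFE, 11 and 4 in HFSC against IFE, and 6 and 4 in HFSC against ORS. The shares of all genes called were 10.6% and 8.82%, 19.9% and 16.1%, and 14.3% and 14.4%. Fzd10 was lower in ORS (-4.52) and HFSC (-4.84) than in IFE, while Fzd7 was higher (4.51 and 4.28), at 5.09 to 17.7 CPM in IFE and 163 to 336 CPM elsewhere. Lgr5, a receptor for the R-spondin enhancers and a stem cell marker, was higher by 8.65 and 8.04. Ror2, a receptor for Wnt5a, was at 6.19 to 7.70 CPM in HFSC, at most 1.28 CPM in ORS and 0 in IFE, and was called higher in HFSC against ORS (3.35), as was Fzd9 (2.40), while Lgr6 was called lower (-2.70).

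Of the 16 signal transduction genes, all tested, 3 were called higher and 1 lower in ORS against IFE, 5 and 3 in HFSC against IFE and 1 and 4 in HFSC against ORS, where all genes gave 10.6% and 8.82%, 19.9% and 16.1%, and 14.3% and 14.4%. The transcription factor Lef1 was highest in IFE, at 148 to 241 CPM in IFE, 16.7 to 20.8 CPM in ORS and 0.790 to 25.3 CPM in HFSC, with differences of -3.21 and -4.52 against IFE. Tcf7l2 (2.04 and 2.14) and Tcf7 (2.80 and 2.07) were higher in ORS and HFSC than in IFE, though Tcf7 was not called in HFSC on the deposited scale (adjusted p = 0.0651). Between HFSC and ORS, Tcf7l1 (-1.48), Lef1 (-1.31) and Bcl9 (-1.07) were lower. Of 15 target genes, some of which, such as Lef1, Tcf7 and Lgr5, are also on the lists above, 12 were tested, with 3 higher and 3 lower in ORS, 5 and 3 in HFSC against IFE, and 3 and 3 in HFSC against ORS, beside the same shares of all genes. Myc was lower in ORS than in IFE (-4.12) and higher in HFSC than in ORS (5.60), as were Msx2 (4.10) and Msx1 (2.70), and Msx1 was higher in HFSC than in IFE (4.06). The Msx1 difference between HFSC and ORS was not called on the deposited scale (adjusted p = 0.0709).

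WNT antagonists included genes at high levels in the follicle compartments. Of 15 antagonist genes 9 were tested, with 4 called higher and 2 lower in ORS and in HFSC, each against IFE, and 1 higher and 2 lower in HFSC against ORS. All genes gave 10.6% and 8.82%, 19.9% and 16.1%, and 14.3% and 14.4%. Dkk3 was at 0.793 to 30.7 CPM in IFE, 234 to 271 CPM in ORS and 471 to 817 CPM in HFSC, and Sfrp1, which binds WNT proteins, at 3.39 to 59.5, 229 to 460 and 699 to 1317 CPM. Their differences from IFE were 5.06 and 4.74 in ORS and 6.38 and 6.30 in HFSC. Wif1, which also binds WNT proteins, was higher in HFSC than in IFE (4.02), where it had 0 reads. Kremen2, a DKK co-receptor, was lower in ORS than in IFE (-3.29). Between HFSC and ORS, Apcdd1 (-2.21) and Sostdc1 (-0.98) were lower and Dkk3 was higher (1.32), though by 0.33 and not called on the deposited scale.

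In the knockout comparisons limma and limma-voom called 0 genes of these 5 lists. All genes gave 7.53% in IFE, 3.4% in ORS and 7.64% in HFSC at an unadjusted p under 0.05 (limma). Of 20 receptor genes 1 stood higher and 1 lower in IFE and 1 lower in ORS, and of 21 in HFSC 1 lower. Of 16 transduction genes 1 stood higher in IFE, 0 in ORS and 3 in HFSC. Of 10 target genes 1 stood higher in IFE and 1 lower in ORS, and of 12 in HFSC 3 higher and 1 lower. Of 9 antagonists 1 stood lower in IFE, 1 higher in ORS and 2 lower in HFSC. At an unadjusted p under 0.05 in IFE, Lgr5 (1.95) and Pygo2 (1.36) stood higher in the knockouts and Fzd3 (-2.59) and Dkk3 (-3.36) lower. Dkk3 was at 0.793 and 3.75 CPM in IFE knockouts and 18.0 to 30.7 CPM in controls (adjusted p = 0.212, limma). In ORS, Wif1 stood higher (4.11), at 7.35 and 35.2 CPM against 0 and 1.39 CPM in controls (adjusted p = 1, limma), and Znrf3 lower (-0.61). In HFSC the ligands' partners included Lef1 (3.06), at 18.7 and 25.3 CPM in knockouts against 0.790 and 5.05 CPM in controls (adjusted p = 0.419, limma). Nkd2 (2.45), Tcf7 (1.20) and Ctnnb1 (0.42) stood higher as well, and Msx1 (-1.43), Sostdc1 (-0.83), Sfrp1 (-0.82) and Fzd7 (-0.59) lower. For Sfrp1 the HFSC levels were 699 to 744 CPM in knockouts and 1239 to 1317 CPM in controls (adjusted p = 0.256, limma).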

How the data were processed

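Messenger RNA was measured in 12 libraries of mouse skin cells, 2 per genotype in each of 3 compartments. A PicoPure kit was used for isolation and a SMARTer Ultra kit for amplification, per the labels' protocols. The deposited values are log2 reads per 1e6, as the values show: the authors divided by a library total of 39.9 to 60.9 M, and genes without reads hold the value of 0.9 read. Trim Galore and build mm10 appear in the submitters' processing notes; no aligner, counter or use of strand is given there. Whole reads were recovered for at least 99.99% of values, within 0.2 reads. Replicates of a group differed by more than counting error (chi-square over its degrees of freedom 41.4 to 140.2).

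CPM is the number of reads per 1e6 gene reads, scaled by TMM (30% of ratios and 5% of levels trimmed). Genes with at least 10 reads in 2 libraries and 15 in total were tested on log2(CPM + 0.5), which understates changes of low genes, with limma 3.58.1 (R 4.3.3, statmod 1.5.0, trended robust prior). Since the unit is log2, no count test was used. The 8 IFE and ORS libraries were fitted as 4 groups (4 residual degrees of freedom), the 4 HFSC libraries alone (2), and all 12 as 6 groups (6) for compartments and interactions. P-values are two-sided and adjusted by Benjamini-Hochberg over all tested genes. Exon lengths came from GENCODE M21.

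The members and gene lists were chosen with earlier results of these data known. All 10 ligands are named. A log2 value with its SE is given for ligands at an unadjusted p under 0.05 and for Wnt3 and Wnt4 in each knockout comparison. Of the lists, at most 4 genes per knockout comparison (unadjusted p under 0.05) and 3 called genes per compartment comparison, those with the largest differences, are named. The most alike 3 genes are given per ligand. Alternatives were 2 other scalings, the deposited log2 values, pseudocounts of 0.1 and 2, other filters, limma-voom, other sets of libraries, a block for library number, and each library left out. One gene called in HFSC, not a WNT ligand, is not reported here.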

Additional observations from a re-analysis of the deposited data

How the results depend on the processing

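Single-ligand values were followed for ligands with an unadjusted p under 0.05 (limma) and for Wnt3 and Wnt4 in the knockout comparisons. Over the alternatives tried, they kept their direction and their side of the threshold in 657 cases. They fell below it in 49, rose above it in 8 and changed sign in 1. That was Wnt4 in IFE (-0.12 without knockout E358, and -0.12 to 0.45 over the libraries left out). Other values were not counted, and some changed sign on the deposited scale. Wnt6 in ORS against IFE went from -0.77 to 0.19 and Wnt4 in HFSC against ORS from 0.28 to -0.71. In the IFE knockout comparison the count of called genes went from 0 to 1 on the deposited log2 values, 3 with a filter at 50 reads, 24 with all 12 libraries and 5 with the IFE libraries alone. It ranged from 0 to 53 with 1 library left out, highest without knockout E359. With all 12 libraries 1 ligand, Wnt9b, was called. Leaving out 1 library gave 0 to 2 called genes in ORS. In HFSC the count went from 5 to 2 on the deposited values, 1 without a filter, 0 with limma-voom and 1 with all 12 libraries, and ranged from 1 to 29 with 1 library left out (29 without control L94, 19 without control L136, 2 without knockout L95 and 1 without knockout L97). For ORS minus IFE the range was 0 to 2, for HFSC minus ORS 0 to 6 (1 with limma-voom) and for HFSC minus IFE 0 to 92, highest without IFE knockout E359 (1 on the deposited values and with a pseudocount of 0.1). ORS against IFE gave 2963 called genes, 8003 on the deposited values, 1386 with control groups alone and 1909 to 3509 with 1 library left out, lowest without ORS control E344; with control groups alone 5 ligands were called. HFSC against IFE gave 5499, and 3331 with control groups alone. HFSC against ORS gave 4381, 7435 on the deposited values and 2417 with control groups alone, with 2 ligands called in the last and 2 to 4 with 1 library left out.

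Library numbers E341, E358 and E359 recur in IFE and ORS. Deviations of same-numbered libraries correlated by 0.049, 0.056 and 0.056 over 14449 genes. Each deviation was taken from a group mean of 2 libraries, so E358 and E359 give the same value by construction. The labels do not say whether a number marks 1 mouse. Sex-linked reads gave the same sex within each number. With the number as a replicate block in ORS against IFE, 179 genes and 2 ligands, Wnt3 and Wnt4, were called; the adjusted p of the other 7 ligands lay between 0.0510 and 0.366 with the direction kept. As a random block (consensus correlation 0.115) it left 0 genes called for ORS minus IFE.

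With 2 libraries per group the 95% interval of a knockout effect was wide (-4.31 to 0.41 for Wnt3 in HFSC), and differences within it were not detectable. Wnt9b could not be fitted without either IFE knockout library.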

Other observations

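The 9 other WNT ligand genes held the rest of the ligand reads. Wnt16, an epidermal ligand, was at 61.7 and 41.6 CPM in IFE controls, 12.2 and 54.6 CPM in IFE knockouts, 0.884 to 4.53 CPM in ORS and 0 in HFSC. Its log2 difference was -3.49 in ORS against IFE (SE 0.596, adjusted p = 0.00159, limma) and its IFE mean was at least 204-fold above 3 reads per HFSC library. Wnt5b, a close relative of Wnt5a, was higher in ORS than in IFE by 2.49 (SE 0.742, adjusted p = 0.0349, limma), at 6.90 to 22.1 CPM in ORS and 0 to 4.28 CPM in IFE. Wnt2 had reads in the IFE controls alone, 39 and 33, and 0 in the other 10 libraries; its knockout fold change was not called (adjusted p = 0.442, limma). Wnt2b was at 3.44 and 3.93 CPM in IFE controls and had 3 and 0 reads in IFE knockouts (adjusted p = 0.566, limma), with 3.52 and 3.88 CPM in ORS controls and 0.892 and 7.28 CPM in ORS knockouts. The IFE controls and knockouts also differ in sex. Wnt9a reached 2.62 CPM in HFSC and at most 0.676 CPM elsewhere. Wnt11 had reads in 3 HFSC libraries alone, at most 0.620 CPM, and Wnt8b had 6 reads in ORS control E341. Wnt1 and Wnt8a had 0 reads throughout.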
